A study of Mus musculus with 4 samples.

Results

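The genes described were known, from earlier results on these same data, to be low in the supporting cells of the mouse XX gonad at E11.5 (days of embryonic development) and high by E14.5: Ly6d, Svs5, Pld5, Serpina3a, Adamts19, Sorbs2, Gatm, Mia, Mt3 and Cryab, that is 10 of the 19321 genes of the table. The list was given by name, so the stage differences in supporting cells are what chose the genes, and they are given below as a description and support nothing. The question was which of the 10 were also held by the surface epithelium and which were separate from it.

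Gonads of XX embryos of the C57BL/6 strain were dissociated with the enzyme TrypLE and profiled by droplet single-cell RNA sequencing with the 10x Genomics 3′ chemistry, version 2. The stages ran from E11.5 through E12.5 and then E13.5 to E14.5. All 4 groups are untreated embryos of the same strain, and they differ only in stage. There was 1 library per stage and the labels do not say how many embryos were pooled in each, so no test was run, no p-value is given, and stage and library cannot be told apart. The unit throughout is the UMI (unique molecular identifier, 1 per captured RNA molecule), added up within each class of cells and written as CPM, that sum as parts of 1000000 UMIs of the same cells, and intervals in parentheses are exact 95% intervals that cover counting error only. A level is said to rise or fall between libraries where the interval of its log2 ratio lies on one side of 0, which speaks of these libraries and not of stages in general.

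Pre-granulosa cells are the supporting cells of the ovary. They arise from the epithelium that covers the gonad, enclose the germ cells and later form the follicle, and their fate depends on WNT4 and R-spondin signalling, RUNX1 and FOXL2. The surface epithelium continues to cover the ovary and contributes further supporting cells through fetal life, which is why the same genes were followed in both. The 10 genes belong to no single pathway. LY6D is a small protein anchored to the cell surface, SVS5 is known as a secreted protein of seminal vesicle fluid, SERPINA3A belongs to the serine protease inhibitors, ADAMTS19 is a secreted metalloprotease, and MIA is a small secreted protein first known from melanoma and cartilage. PLD5 is a membrane protein of the phospholipase D family, SORBS2 is an adaptor of the actin cytoskeleton, GATM makes the first step of creatine synthesis, MT3 is a metal-binding metallothionein best known from brain, and CRYAB is a small heat shock protein that holds unfolded proteins.

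Cells were sorted into classes by UMIs above 0. Supporting cells had at least 3 of Fst, Wnt4, Wnt6, Irx3 and Runx1, surface epithelium had Upk3b with Krt19 or Krt7, interstitial cells had Col1a1 with Tcf21, and germ cells had at least 3 of 6 germ cell genes. A cell that met 2 or more rules was left out of every class, which gave 2161, 2159, 1755 and 677 supporting cells in stage order, and 610, 565, 396 and 344 surface epithelium cells. Before that step 2307, 2455, 2086 and 1170 cells met the supporting rule, and 779, 861, 790 and 754 the surface epithelium rule. The share left out was thus largest at E14.5 in both classes, so stages were compared on unevenly filtered cells. Cells that met the supporting and surface epithelium rules and no other numbered 94, 206, 251 and 307, and are described as a group of their own. The median supporting cell had 13898, 11724, 10622 and 9642 UMIs. The class rests on its rule genes and not on Foxl2, the defining transcription factor of granulosa cells. Foxl2 had 4, 4, 7 and 1 UMIs over all supporting cells of the 4 libraries. Irx3, a gene of the supporting rule, and Col1a1, of the interstitial rule, were themselves higher in supporting cells at E14.5 than at E11.5. Both were past the rule of size, and the part of this in the choice of cells was not tested. Markers of Sertoli cells, the supporting cells of the testis, had a summed level over 6 genes of 112, 40.6, 36.3 and 31.1 CPM in stage order. Erythroid genes (7 genes, none at 0) went from 1982 to 14405 CPM in supporting cells and from 3662 to 13564 CPM in surface epithelium. By the rule of size given below, 6 of the 7 were higher in supporting cells at E14.5 and 1, Hba-x, was lower. In 5 supporting cells at E11.5 and 24 at E14.5 the 7 erythroid genes together took over 1% of UMIs. Without those cells, 9 of the 10 genes were still past the rule of size between E11.5 and E14.5. Leaving out such cells of the surface epithelium as well left 5 past it there, and 5 higher in supporting cells than in surface epithelium at E14.5, as with all cells. The other counts were not run without them. Surface epithelium markers (10 genes, 1 of them at 0) went from 196 to 449 CPM in supporting cells, with Aldh1a1 past the rule of size. In the surface epithelium they went from 476 to 1078 CPM. In supporting cells the summed level of interstitial markers (9 genes, of which 1 was at 0 at E14.5) went from 130 to 283 CPM, with Col1a2 and Dcn past the rule of size, endothelial markers (5 genes, none at 0) from 16.4 to 60.8 CPM, with Kdr past it, immune markers (6 genes, none at 0) from 10.4 to 23.3 CPM and germ markers (6 genes, of which 1 was at 0 at E11.5) from 6.56 to 37.4 CPM. The part of all these markers in the levels below was not tested. Between 19 and 36 cell barcodes were shared by each pair of libraries.

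Promoters from RefSeq (build GRCm38.p6, the 250 bases before the annotated start) were found for 7 of the 10 genes, and not for Ly6d, Adamts19 and Cryab. The promoters shown are those of a pair of members that share a TATA box, and of Mt3 with a close relative from which it differs in the motifs it holds. Svs5 and Serpina3a were the members with a TATA box (TATAAA, searched on both strands and held by 12.4% of all 32851 promoters of this length). In Svs5 it began 28 bases before the start, and in Serpina3a 29 bases before it, with an overlapping match on the other strand. Capitals mark the matches. The Svs5 window is chr2:164332515-164332764 on the plus strand and the Serpina3a window chr12:104112474-104112723 on the plus strand. The Svs5 locus given below comes from another annotation and begins at 164332740, inside this window. The distance of 28 bases therefore holds for the RefSeq start only.
Svs5: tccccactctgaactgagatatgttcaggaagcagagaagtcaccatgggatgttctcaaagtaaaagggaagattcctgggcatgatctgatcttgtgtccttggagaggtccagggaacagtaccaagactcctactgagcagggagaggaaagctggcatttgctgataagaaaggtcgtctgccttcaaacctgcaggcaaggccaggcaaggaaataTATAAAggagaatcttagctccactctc
Serpina3a: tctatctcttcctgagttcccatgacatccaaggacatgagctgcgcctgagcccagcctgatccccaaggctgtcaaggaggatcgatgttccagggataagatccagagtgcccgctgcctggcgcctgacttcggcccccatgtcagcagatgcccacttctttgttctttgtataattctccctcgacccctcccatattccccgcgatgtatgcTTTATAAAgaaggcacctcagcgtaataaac
Mt3 lies beside the metallothionein genes Mt2 and Mt1 on chromosome 8, and metallothionein genes are known for metal response elements, whose core was searched as TGCACNC (in 3417 of the promoters) and TGCGCNC (in 4109). The Mt2 window (chr8:94172368-94172617, plus strand) held 3 matches, in capitals, and the Mt3 window (chr8:94152357-94152606, plus strand) held none, so it is printed without capitals.
Mt2: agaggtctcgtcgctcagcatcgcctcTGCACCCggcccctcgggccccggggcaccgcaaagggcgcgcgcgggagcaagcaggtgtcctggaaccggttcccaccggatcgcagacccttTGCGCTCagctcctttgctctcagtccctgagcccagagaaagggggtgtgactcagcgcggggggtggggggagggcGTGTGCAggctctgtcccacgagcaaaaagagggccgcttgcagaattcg
Mt3: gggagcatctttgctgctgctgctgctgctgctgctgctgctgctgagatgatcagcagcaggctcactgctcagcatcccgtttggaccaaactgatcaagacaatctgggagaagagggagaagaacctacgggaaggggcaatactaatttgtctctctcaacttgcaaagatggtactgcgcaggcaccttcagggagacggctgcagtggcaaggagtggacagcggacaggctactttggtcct
The Mt1 window held 1 match, and a Sorbs2 window 1 match of TGCGCNC. A match is only a run of letters, and none of the windows was tested for function here. A GATA site (AGATAA), a forkhead site (TGTTTAC), an NR5A1 half-site (AAGGTCA) and a TCF and LEF site (CTTTGAT) were found in no window of the 7 members, against 9.99%, 3.17%, 4.08% and 3.21% of all promoters.

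In supporting cells all 10 genes were higher at E14.5 than at E11.5, but they did not all rise late. The larger set (Ly6d, Svs5, Serpina3a, Gatm, Mia and Cryab) rose at every step and were highest at E14.5. The other 4 (Pld5, Adamts19, Sorbs2 and Mt3) had reached their highest level by E13.5. The name "late-rising" thus holds for them against E11.5 and E12.5, but not against E13.5. By the rule of size used here (a minimum level of 20 CPM in one of the libraries and of 50 UMIs in the pair, separate intervals, and a 4-fold ratio or more), 9 of the 10 were higher at E14.5, beside 1.53% of the 6064 genes that met the minimums, and none was lower, beside 1.12%. This contrast chose the genes, so nothing is read from that count. Serpina3a was the exception, with a level just under the CPM minimum.

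**Figure D1:**
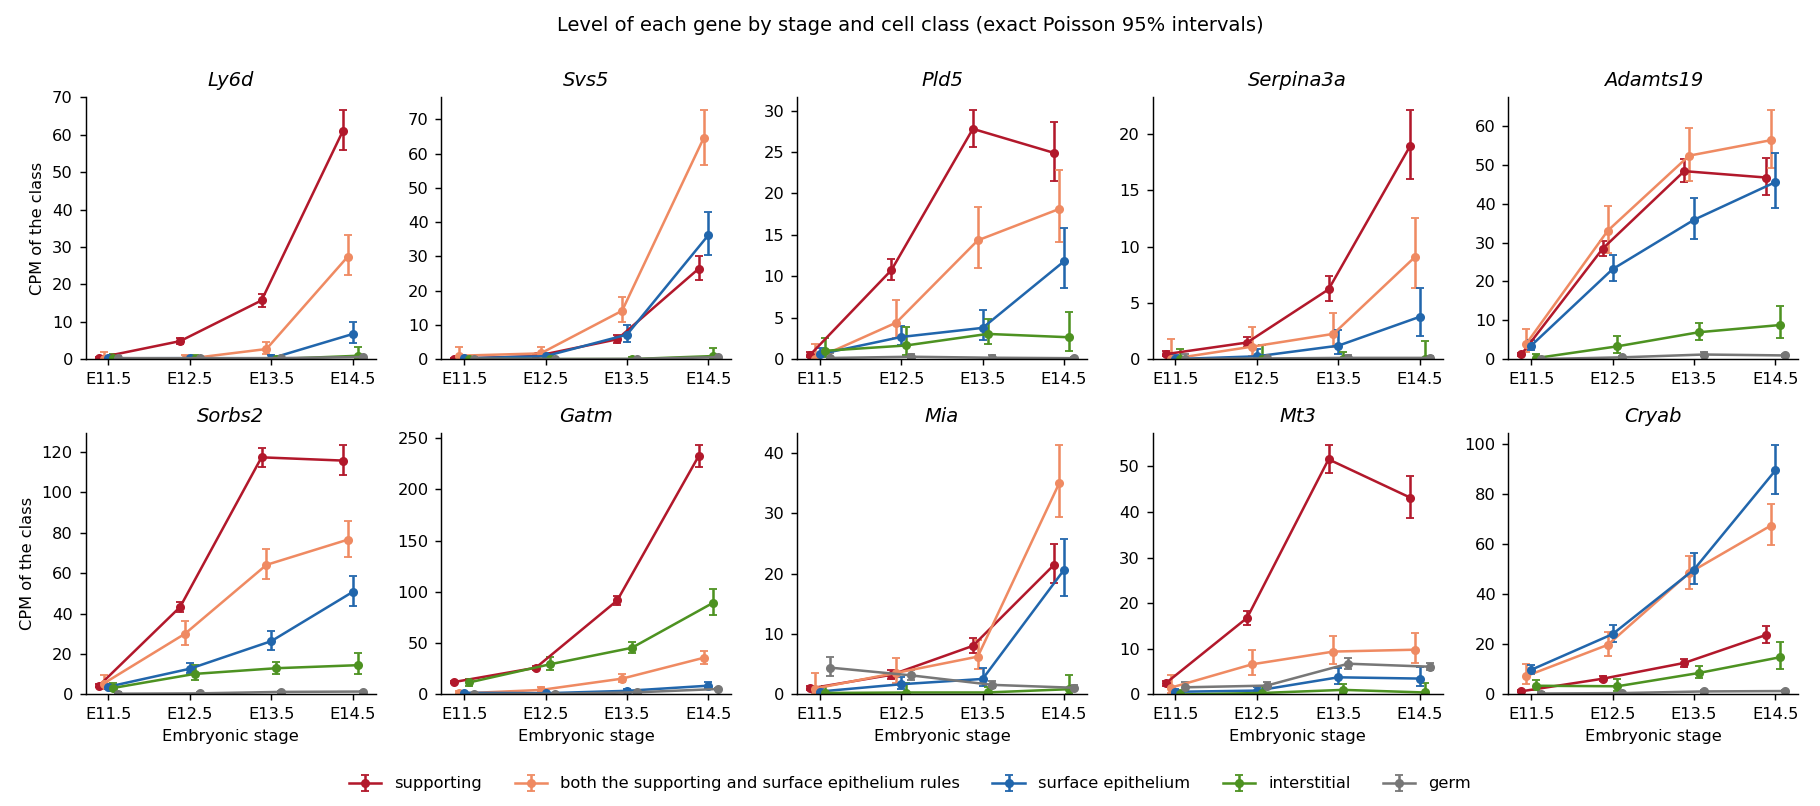
Level of each gene in CPM (vertical axis, linear, its own range for each gene) by embryonic stage (horizontal axis) in supporting cells, surface epithelium, cells that met both of those rules, interstitial cells and germ cells, with exact Poisson 95% intervals and 1 library per stage. Among the groups shown at E14.5, supporting cells have the highest level of Ly6d, Pld5, Serpina3a, Sorbs2, Gatm and Mt3. The Adamts19 lines of supporting cells and surface epithelium run close together, and Cryab is higher in the surface epithelium at every stage.

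Among the surface and secreted products, Ly6d (chr15:74762056-74763620, minus strand, GRCm38) had 0.342, 4.80, 15.7 and 61.1 CPM (55.8 to 66.7) in supporting cells, in stage order from E11.5 to E14.5, from 11, 134, 337 and 491 UMIs. The level rose at each step and no neighbouring intervals overlapped. The E14.5 level was 178 times that of E11.5, a log2 ratio of 7.48 (6.63 to 8.49), and the last step alone was 1.96 (1.76 to 2.17). In the surface epithelium Ly6d stayed at 0.197, 0.242 and 0.198 CPM up to E13.5, on 2, 2 and 1 UMIs, and reached 6.70 CPM (4.34 to 9.90) at E14.5. Interstitial cells had 2 UMIs at E14.5 and germ cells 0.544 CPM. Of the 681 Ly6d UMIs found outside germ cells at E14.5, supporting cells held 491, cells that met both the supporting and the surface epithelium rules 109, and cells that met no rule 40. At E11.5 cells that met no rule held 42 of 59, or 1.94 CPM, above the level of supporting cells. The E14.5 log2 ratio of supporting cells over surface epithelium was 3.19 (2.61 to 3.83).

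Svs5 (chr2:164332740-164334396, plus strand) had 0.0933, 0.860, 5.77 and 26.4 CPM (22.9 to 30.2) in supporting cells. The first value rests on 3 UMIs, so the log2 ratio of E14.5 over E11.5, 8.14, has a wide interval (6.58 to 10.43). The surface epithelium followed the same course, with 0.197, 0.849, 7.13 and 36.2 CPM (30.4 to 42.8 at E14.5). At E14.5 the surface epithelium was the higher of the classes, with a log2 ratio of supporting cells over surface epithelium of -0.46 (-0.78 to -0.14). The direction turned to 1.35 when supporting cells were defined by 2 of the 5 rule genes, and the cause was not tested. Interstitial cells had 2 UMIs of Svs5 over the 4 stages together, all at E14.5.

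Serpina3a (chr12:104112724-104121896, plus strand) had 0.436, 1.47, 6.19 and 18.9 CPM in supporting cells, from 14, 41, 133 and 152 UMIs. Its largest step was from E12.5 to E13.5, a log2 ratio of 2.08 (1.56 to 2.62), and the whole change was 5.44 (4.65 to 6.34). No UMI was found in interstitial cells at any stage, and germ cells held 0, 1, 2 and 4 UMIs. In the surface epithelium it had 0, 2, 6 and 14 UMIs, which is 0, 0.242, 1.19 and 3.75 CPM, and against a floor of 3 UMIs in place of 0 at E11.5 the change was at least 12.7-fold, while the lower limit of the exact interval was a log2 ratio of 3.18. Supporting cells were the higher class at E14.5, by a log2 ratio of 2.33 (1.54 to 3.24).

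Mia (chr7:27179742-27181157, minus strand) had 0.996, 3.26, 8.05 and 21.5 CPM in supporting cells, the last with an interval of 18.4 to 25.0. Its steps were of like size, with log2 ratios of 1.71, 1.30 and 1.42 and overlapping intervals. The surface epithelium was lower at E13.5, with 2.58 CPM (1.37 to 4.41), and then reached 20.6 CPM (16.3 to 25.8) at E14.5, where the classes could not be separated (log2 ratio 0.06, -0.34 to 0.47). Germ cells went the other way, from 4.46 CPM at E11.5 through 3.17 and 1.59 to 1.11 at E14.5. At E11.5 Mia was in fact higher in germ cells than in supporting cells. The gene Gm21983 overlaps Mia on the same strand over 1345 bases, so the counts of Mia are uncertain by however the reads were shared between them.

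Adamts19 (chromosome 18) had 1.21, 28.5, 48.4 and 46.8 CPM (42.2 to 51.7) in supporting cells. Most of the rise was complete by E12.5, with a first step of 4.55 (4.09 to 5.06) on the log2 scale, and the last step, -0.05 (-0.22 to 0.12), covers 0. The surface epithelium had 3.45, 23.2, 35.9 and 45.6 CPM and was level with supporting cells at E14.5, with a log2 ratio of 0.04 (-0.23 to 0.31). Interstitial cells were lower but rose too, from 0.249 to 8.77 CPM, the first on 1 UMI. The Adamts19 lines of both classes thus met at E14.5 within the counting error.

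Among the membrane and intracellular products, Pld5 (chr1:175962306-176275312, minus strand) had 0.498, 10.7, 27.8 and 24.9 CPM in supporting cells. It rose in 2 steps, 4.43 (3.71 to 5.26) and 1.37 (1.17 to 1.58) on the log2 scale, and the last step covers 0 (-0.16, -0.40 to 0.07). The surface epithelium had 0.591, 2.67, 3.77 and 11.8 CPM, and it rose at the last step, when supporting cells did not. Supporting cells were the higher class at E14.5 by 1.08 (0.60 to 1.58).

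Sorbs2 (chr8:45507788-45827906, plus strand) had 4.20, 43.2, 117 and 116 CPM (108 to 123) in supporting cells. The E13.5 and E14.5 levels could not be separated (-0.02, -0.13 to 0.09). In the surface epithelium it rose at every step, with 3.84, 12.7, 26.4 and 50.7 CPM, so the gap to supporting cells narrowed to a log2 ratio of 1.19 (0.96 to 1.42) at E14.5. The antisense transcripts Gm16351 and Sorbs2os overlap Sorbs2, and whether the counting used strand is not given in the sources used here.

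Gatm (chr2:122594467-122611303, minus strand) had 12.2, 26.1, 91.6 and 232 CPM (222 to 243) in supporting cells. Its largest step came between E12.5 and E13.5 (1.81, 1.69 to 1.94), and the last was still 1.34 (1.25 to 1.43). Interstitial cells held it as well, at 11.7, 29.5, 45.5 and 89.5 CPM, and could not be separated from supporting cells by their intervals at E11.5 and E12.5. The surface epithelium had 1.67, 1.21, 3.57 and 8.58 CPM. That last level is close to the 5.36 CPM of germ cells in the same library (log2 ratio of surface epithelium over germ cells 0.68, 0.09 to 1.22). Gatm thus separated supporting cells from surface epithelium by 4.76 (4.26 to 5.31) at E14.5, and from interstitial cells by 1.38.

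Mt3 (chr8:94152607-94154146, plus strand) had 2.46, 16.8, 51.5 and 43.2 CPM in supporting cells, and was the only one of the 10 whose last step lay below 0 (-0.26, -0.43 to -0.08). The surface epithelium had 0.591, 0.849, 3.77 and 3.49 CPM. Germ cells had 1.57, 1.94, 6.74 and 6.09 CPM, so the surface epithelium lay at or below the level of germ cells at E13.5 and E14.5, and no expression is read from them. Supporting cells were higher than surface epithelium at E14.5 by 3.63 (2.84 to 4.55). Interstitial cells had 0, 1, 6 and 1 UMIs, which at E14.5 is 0.439 CPM (0.0111 to 2.44), under the germ cell level, so the germ cell level of Mt3 was not common to all classes.

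Cryab (chr9:50751325-50756636, plus strand) had 1.28, 6.30, 12.6 and 23.8 CPM in supporting cells and 9.85, 24.1, 49.9 and 89.6 CPM in the surface epithelium. It rose in both, and the surface epithelium was higher at each stage with no overlap of the intervals. At E14.5 the log2 ratio of supporting cells over surface epithelium was -1.91 (-2.18 to -1.65). Interstitial cells had 3.49, 3.28, 8.60 and 14.9 CPM, which at E14.5 was closer to supporting cells (0.67, 0.14 to 1.24) than the surface epithelium was. Among the 4 classes the surface epithelium thus held the highest level of Cryab at each stage. The gene Hspb2 overlaps it on the opposite strand over 1030 bases.

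**Figure D2:**
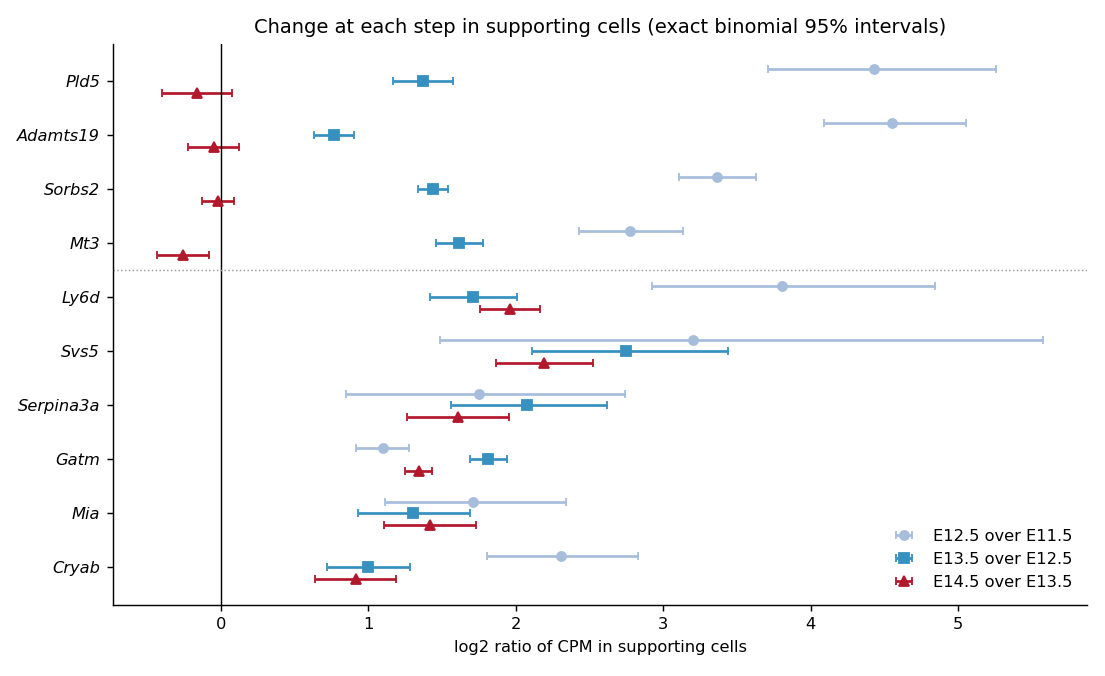
Log2 ratio of CPM in supporting cells (horizontal axis) for each step between neighbouring stages, with exact binomial 95% intervals, for the 10 genes (vertical axis), 1 library per stage. Above the dotted line are Pld5, Adamts19, Sorbs2 and Mt3, whose last step covers or lies below 0, and below it are the 6 genes whose last step lies above 0.

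The largest step on the log2 scale was from E11.5 to E12.5 for 8 of the 10 genes, the exceptions being Serpina3a and Gatm. By the rule of size, Adamts19 and Sorbs2 were higher at E12.5 than at E11.5, beside 0.241% of all genes tested, none of the 10 was higher at E13.5 than at E12.5 (0.0173% of all genes), and Svs5 was higher at E14.5 than at E13.5 (0.152%). Low early levels left 3, 5 and 9 of the 10 genes above the minimums in these steps, so the counts say little of the genes that started near 0. As a share of the E14.5 level, the E12.5 level ran from 3.26% for Svs5 to 60.9% for Adamts19.

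In the surface epithelium 5 of the 10 genes (Svs5, Adamts19, Sorbs2, Mia and Cryab) were higher at E14.5 than at E11.5 by the same rule, beside 1.28% of 5859 genes. The other 5 did not reach the minimums there. Their log2 ratios were 5.09 for Ly6d (3.09 to 8.21), 4.32 for Pld5 (3.08 to 5.84), 2.56 for Mt3 (1.07 to 4.24) and 2.36 for Gatm (1.47 to 3.30), beside the bound given for Serpina3a, and for Gatm and Mt3 the levels were close to those of germ cells. Among the genes past the rule in the surface epithelium the log2 ratios were 7.52 for Svs5 (5.64 to 10.58), 5.39 for Mia (4.11 to 7.05), 3.73 for Adamts19 (3.19 to 4.29), 3.72 for Sorbs2 (3.22 to 4.26) and 3.19 for Cryab (2.86 to 3.52). In interstitial cells Gatm was the only one that met the minimums. It was past the rule (2.93, 2.47 to 3.42, beside 0.726% of all genes). Under the minimums there, intervals also lay above 0 for Adamts19 (5.14, 2.49 to 10.5), Sorbs2 (2.16, 1.20 to 3.21) and Cryab (2.10, 1.16 to 3.11). Those of Ly6d, Svs5, Pld5, Mia and Mt3 covered 0, and Serpina3a had no UMI. None of the 10 met the minimums in germ cells (6.63% of all genes were past the rule there), where the highest level of any of them was 6.74 CPM, that of Mt3 at E13.5.

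Set against each other at E14.5, with a ratio of at least 2 and the same minimums, supporting cells were higher than surface epithelium for Ly6d, Pld5, Sorbs2, Gatm and Mt3, beside 6.51% of 6223 genes, and lower for Cryab, beside 6.17%. Serpina3a lay under the minimums. Svs5, Adamts19 and Mia passed in neither direction. At E13.5 the genes higher in supporting cells were Pld5, Sorbs2, Gatm and Mt3 (8.66% of all genes). At E12.5 they were Sorbs2 and Gatm (7.62%), and Cryab was lower at both stages (7.33% and 7.93%). Only 6 of the 10 met the minimums at E13.5 and 4 at E12.5, so the rest were not judged there. Of these, Ly6d at E13.5 had 15.7 CPM in supporting cells and 0.198 CPM in surface epithelium, while Svs5 had 5.77 and 7.13. Mt3 at E12.5 had 16.8 and 0.849 CPM, and Pld5 10.7 and 2.67. At E11.5 none of the 10 met the minimums, beside 10.5% of all genes higher and 8.96% lower. By their E14.5 log2 ratios alone the 10 fall into 4 sets. Ly6d, Serpina3a, Gatm and Mt3 are called separate from the surface epithelium, with ratios above 2, though Ly6d and Serpina3a were found there at 6.70 and 3.75 CPM. Pld5 and Sorbs2 were higher in supporting cells by about 1 log2 unit. Svs5, Adamts19 and Mia were shared, and Cryab was higher in the surface epithelium. The first sets were not sharply divided: over the alternatives given below, the Serpina3a ratio fell to 1.27 and that of Sorbs2 reached 1.42. Against interstitial cells 8 of the 10 were higher in supporting cells at E14.5 (11.7% of all genes), and against germ cells 9 were (27%). Serpina3a lay under the minimums in both comparisons, with 152 UMIs in supporting cells and 0 in interstitial cells. Cryab met the minimums against interstitial cells but not the ratio of 2, with 23.8 against 14.9 CPM.

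**Figure D3:**
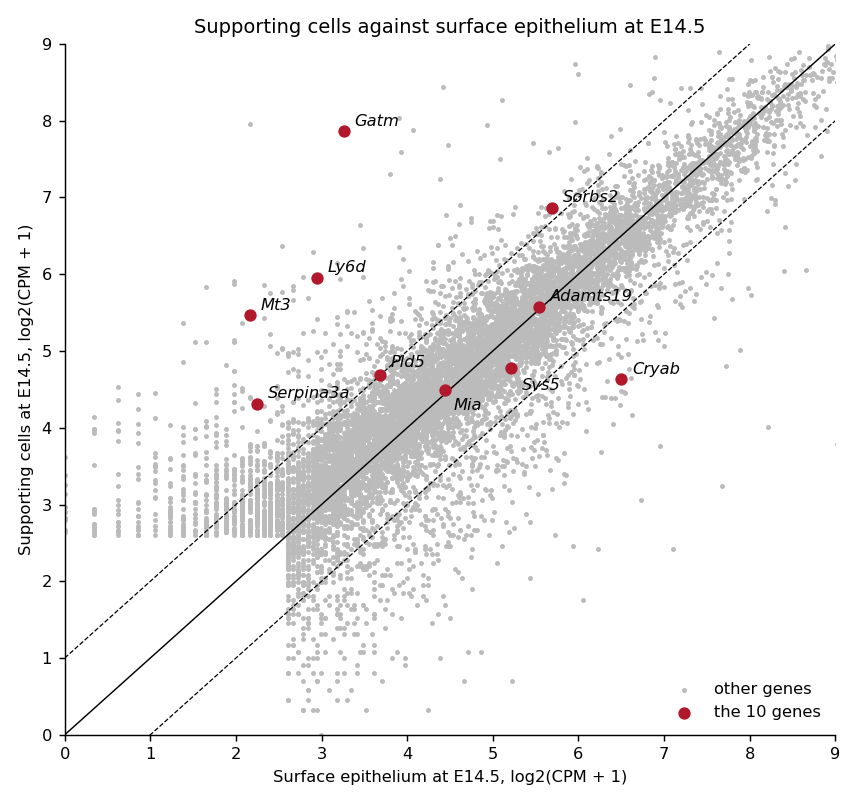
Level at E14.5 in supporting cells (vertical axis) against surface epithelium (horizontal axis), both as log2(CPM + 1), 1 library. Grey points are genes with at least 5 CPM in one of the classes, red points are the 10 genes, the solid line marks equal levels and the dashed lines a ratio of 2 either way. Gatm, Ly6d, Mt3 and Serpina3a lie far above the upper dashed line, Adamts19 and Mia lie on the line of equal levels, and Cryab lies below the lower dashed line.

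Cells that met both the supporting and the surface epithelium rules were compared with each class by CPM. At E14.5 the 307 such cells had 64.4 CPM of Svs5 (56.8 to 72.8), 35.0 CPM of Mia (29.4 to 41.3) and 56.4 CPM of Adamts19 (49.2 to 64.3). By CPM these 3 genes, the shared set, were the ones higher in cells of both rules than in either class. For Adamts19 the share of cells with a UMI, at 2000 UMIs per cell, did not follow. It was 8.47% in cells of both rules (5.61 to 12.2), 9.16% in supporting cells and 11.6% in surface epithelium, with overlapping intervals. Over the surface epithelium the log2 ratios were 0.83 for Svs5 (0.53 to 1.14), 0.76 for Mia (0.35 to 1.18) and 0.31 for Adamts19 (0.01 to 0.60), and over supporting cells they were 1.29, 0.70 and 0.27. The other 7 genes lay between the classes: Ly6d had 27.4 CPM, Serpina3a 9.06, Pld5 18.1, Sorbs2 76.5, Gatm 35.7, Mt3 9.81 and Cryab 67.4. The median cell of both rules had 10821 UMIs, against 9642 for supporting cells and 9885.5 for surface epithelium, and whether such cells are doublets was not tested. By the rule of size 7 of the 10 were higher in these cells at E14.5 than at E11.5, beside 1.19% of 5989 genes. Pld5, Serpina3a and Mt3 did not meet the minimums there, with 72, 36 and 39 UMIs at E14.5 against 0, 0 and 3 at E11.5.

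Detection in single cells was compared after all cells had been cut down at random to 2000 UMIs, which removes the difference in depth between classes. At E14.5 a UMI of at least 1 of the 10 genes was found in 66.8% of supporting cells (63.1 to 70.3), against 4.07%, 22.6% and 50.1% at the 3 earlier stages. Germ cells gave 2.53% at E11.5 (0.935 to 5.43), where 5 of the 6 cells held Mia, and 3.55% at E14.5. At E11.5 the intervals of both classes overlap, so the share of any gene does not separate them there. Single genes did: by CPM at E11.5, Gatm was 12.2 in supporting cells, from 392 UMIs, and 0.524 (0.143 to 1.34) in germ cells, and Sorbs2 was 4.20 (3.52 to 4.97) and 0.393 (0.0811 to 1.15), with no overlap of the intervals for either gene. The surface epithelium gave 43.3% at E14.5 and cells of both rules 55.4%. Without thinning, the median supporting cell held UMIs of 0, 1, 2 and 3 of the 10 genes in stage order, and at E14.5 a share of 3.40% held none.

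Gene by gene, the thinned E14.5 share of supporting cells was 35.5% for Gatm (0.997% in germ cells), 20.4% for Sorbs2 (0.260%), 9.16% for Adamts19 (0.130%), 8.86% for Mt3 (1.30%) and 8.12% for Ly6d (0.130%). It was 5.32% for Pld5, 4.87% for Mia, 4.43% for Svs5, 4.43% for Cryab and 4.14% for Serpina3a, each against 0.347% or less in germ cells. For Serpina3a the germ cell share was 0 of 2307 cells, which by the limit of 3 counts allows 0.130% of cells with a UMI (exact interval up to 0.160%). The surface epithelium exceeded supporting cells for Cryab (18.3%), Svs5 (7.27%) and Adamts19 (11.6%), though for the last 2 the intervals overlap those of supporting cells. In supporting cells the interval of every gene lay above that of germ cells. In the surface epithelium the intervals of Ly6d (0.581%), Serpina3a (0.581%), Gatm (1.45%) and Mt3 (1.16%) overlapped those of germ cells, the first 2 on 2 of 344 cells each. Over all UMIs Ly6d and Serpina3a were nevertheless above germ cells in the surface epithelium, Ly6d with 6.70 CPM against 0.544 (0.337 to 0.832) and Serpina3a with 3.75 CPM (2.05 to 6.30) against 0.104 (0.0282 to 0.265).

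**Figure D4:**
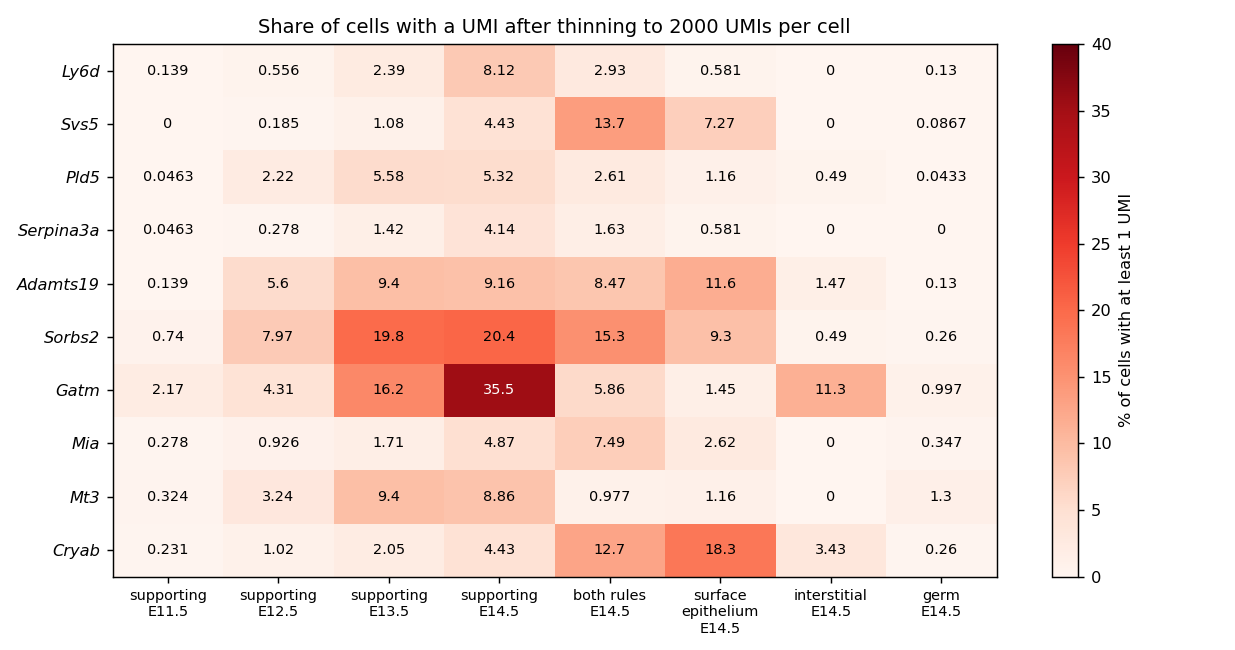
Share of cells (in %, printed and as colour) with at least 1 UMI of each gene (vertical axis) after each cell was thinned to 2000 UMIs, for supporting cells at the 4 stages and for 4 other groups of cells at E14.5 (horizontal axis), 1 library per stage. Gatm and Sorbs2 reach 35.5% and 20.4% of supporting cells at E14.5, Cryab is most often found in surface epithelium (18.3%), Svs5 in cells of both rules (13.7%), and germ cells show at most 1.30%.

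Joint detection of 2 genes in the same thinned supporting cells was rare at E14.5, which limits what it shows. Of the 45 pairs, 43 had an interval of joint detection that covers the product of the single shares. The exceptions both include Adamts19. It was found with Ly6d in 1.77% of cells (0.919 to 3.08), against a product of 0.744%. With Svs5 it was found in 1.18% (0.512 to 2.32), against 0.406%. These shares rest on 12 and 8 cells. The intervals were not adjusted for the 45 pairs looked at, and they leave out the error of the product. Among so many pairs a few exceptions can arise from counting error alone, so no joint expression is read from them. For 25 of the pairs the product was no higher than 0.543%, the upper limit when none of the 677 cells holds both, so those pairs could not have fallen below it.

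Splits of the E14.5 supporting cells by a second gene showed differences within the class. Lgr5, a receptor for R-spondins, was detected in 7.82%, 19.5%, 26.7% and 39.6% of supporting cells over the stages. At E14.5 the 268 cells with Lgr5 had 87.0 CPM of Ly6d (77.3 to 97.6) and the 409 without it 42.5 CPM (36.8 to 48.8), a log2 ratio of 1.03 (0.77 to 1.30). Pld5 was higher with Lgr5 too (0.60, 0.18 to 1.01) and Cryab was lower (-0.79, -1.26 to -0.33). The intervals of the other 7 genes cover 0. The same direction was seen at E13.5 for Ly6d (0.67, 0.35 to 0.99) and Pld5 (0.59, 0.35 to 0.83), but at E12.5 both intervals cover 0. The E13.5 interval of Cryab covers 0 (-0.27, -0.67 to 0.12). Adamts19 (0.57, 0.39 to 0.75) and Mia (0.57, 0.11 to 1.02) were higher with Lgr5 at E13.5, unlike at E14.5. At E12.5 Adamts19 was higher with Lgr5 as well (0.39, 0.15 to 0.62). Mia was lower there (-1.44, -2.70 to -0.40), on 8 UMIs in cells with Lgr5, so its direction turned between E12.5 and E13.5. Gatm, which did not differ by Lgr5 at E14.5 (-0.01, -0.14 to 0.13), was lower in Lgr5 cells at E12.5 (-0.41, -0.70 to -0.12) and E13.5 (-0.70, -0.86 to -0.55).

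Pax8 is a transcription factor of mesonephric tubules and of the rete, the network of tubules that joins the gonad to them. It was detected in 75 of the 677 supporting cells at E14.5. In those cells Cryab was higher, at 56.2 CPM (42.9 to 72.3) against 18.8 (15.7 to 22.3), and Sorbs2 was higher, at 168 against 107 CPM. More of the genes were lower: the log2 ratio was -1.58 for Ly6d (-2.23 to -0.98), -1.67 for Serpina3a (-3.01 to -0.59), -1.35 for Svs5, -1.17 for Mia, -0.92 for Pld5 and -0.87 for Adamts19, with every interval below 0. Gatm was slightly higher (0.19, 0.00 to 0.37), and the interval of Mt3 covers 0. The Pax8 cells thus held the genes of the list in another proportion, with Cryab, Sorbs2 and Gatm kept or raised. At E12.5 and E13.5 Cryab and Sorbs2 were again higher and Ly6d lower in Pax8 cells, with Cryab ratios of 1.03 (0.45 to 1.57) and 1.14 (0.73 to 1.54).

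Cells with a UMI of the proliferation genes Mki67, Top2a or Cdk1 made up 33.7% of supporting cells at E14.5. The summed level of these genes was 108 CPM in supporting cells and 523 CPM in germ cells of the same library, so the split is by a UMI found, and the part of free RNA in it was not tested. They held less Ly6d (38.0 against 75.4 CPM, log2 ratio -0.99, -1.30 to -0.69), less Mia (-0.95, -1.49 to -0.44), less Svs5 (-0.86, -1.34 to -0.41) and less Serpina3a (-0.70, -1.25 to -0.18). The ratios of Mt3 (-0.36), Adamts19 (-0.35), Sorbs2 (-0.21) and Gatm (-0.16) were smaller, with intervals just below 0, and for Pld5 and Cryab the intervals cover 0. At E13.5 Ly6d and Mia did not differ by this split beyond their intervals (0.06, -0.28 to 0.40, and 0.12, -0.36 to 0.59), whereas Gatm was lower in cells with such a UMI (-0.79, -0.94 to -0.63). Cells split in these ways also differ in depth: at E14.5 the median UMIs were 11992 with Pax8 and 9365.5 without, 11448 with a proliferation gene and 9304 without, and 10045.5 with Lgr5 and 9401 without, and the part of depth in the ratios was not tested. Foxl2 was too rare for such a split.

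**Figure D5:**
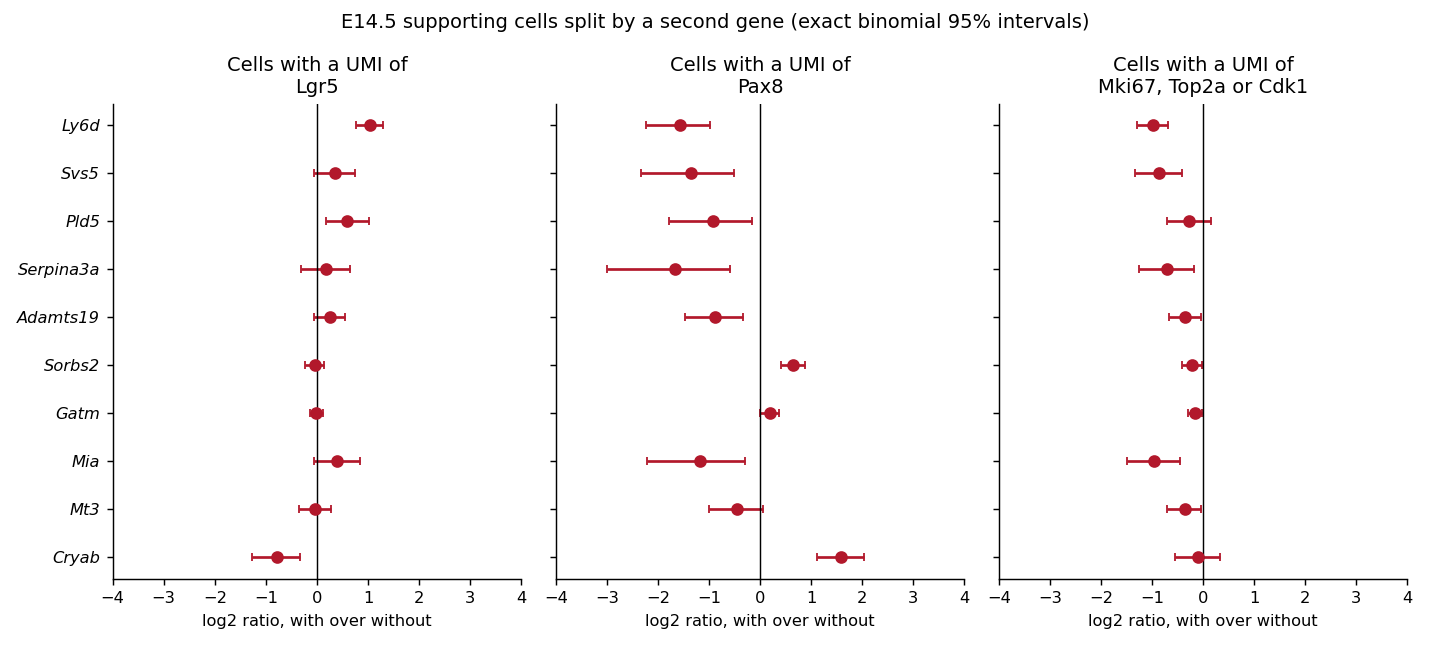
Log2 ratio of CPM (horizontal axis) between E14.5 supporting cells with and without a UMI of Lgr5 (left), Pax8 (middle) or Mki67, Top2a or Cdk1 (right), with exact binomial 95% intervals, for the 10 genes (vertical axis), 1 library. Ly6d is higher with Lgr5 (1.03) and lower with Pax8 (-1.58) and with the proliferation genes (-0.99), while Cryab is lower with Lgr5 (-0.79) and higher with Pax8 (1.58).

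Most relatives of the 10 genes were too low for the rule of size. Between E11.5 and E14.5 in supporting cells, the minimums were met by 2 of 11 relatives of the Ly6 family, 2 of 5 of phospholipase D, 4 of 18 of ADAMTS, 1 of 2 of MIA, 1 of 5 creatine genes and 0 of 2 of the sorbin family. None of those that met them was past the rule, beside 1.53% of all genes higher, so with so few genes the count says little. Gamt, which completes creatine synthesis after GATM, went from 203 to 135 CPM, and the creatine transporter gene Slc6a8 from 2.99 to 5.22 CPM. Pld1 went from 38.5 to 13.7 CPM, against the direction of Pld5. Adamts16, with 10.1 and 27.1 CPM, and Ly6e, with 50.8 and 128 CPM, were higher at E14.5 by less than a ratio of 4.

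The families of Svs5 and Serpina3a held relatives with few UMIs that were higher at E14.5 too. Svs6, beside Svs5 in the seminal vesicle family, had 0, 0, 19 and 36 UMIs in supporting cells, or 4.48 CPM at E14.5, and 0, 0, 8 and 43 UMIs in the surface epithelium, too few for the rule of size. Serpina3g had 0.280, 0.788, 2.19 and 6.22 CPM in supporting cells and was higher in the surface epithelium, with 3.35, 5.09, 22.8 and 26.5 CPM, which is the reverse of Serpina3a. Reads of such close copies can be counted for the wrong gene, and how the counting treated them is not given in the sources used here.

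The other metallothioneins were less restricted than Mt3. Mt2 passed the rule in supporting cells, with 33.5, 41.9, 40.4 and 142 CPM, and Mt1 had 126, 245, 307 and 428 CPM. Both were higher in the surface epithelium at E14.5, with 306 and 659 CPM, where Mt3 was no higher than in germ cells. Mt2 in germ cells went from 488 to 102 CPM, and Mt3 there was 1.57 and 6.09 CPM. Among the small heat shock genes Hspb6 passed the rule, from 6.07 to 30.5 CPM, while Hspb1 went from 176 to 135 CPM and Hspb2, the neighbour of Cryab, from 0.187 to 3.36 CPM. In the surface epithelium Hspb6 went from 3.45 to 4.56 CPM.

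Other genes of the pre-granulosa programme were followed by a list chosen with earlier results known. Of its 20 genes 17 met the minimums, 2 were higher at E14.5 than at E11.5 by the rule of size (Lgr5, from 6.78 to 55.2 CPM, and Gng13, from 124 to 1085 CPM) beside 1.53% of all genes, and 0 were lower, with a median log2 ratio of -0.38 beside -0.03 over all genes tested. Kitl, the ligand for the germ cell receptor KIT, went from 235 to 343 CPM and Bmp2 from 59.5 to 81.3 CPM. Gata4, Wt1, Nr5a1, Lhx9 and Emx2, transcription factors of the early gonad, each had a lower level at E14.5, Wt1 for example 541 and then 368 CPM. Lgr5 and Gng13 rose in the surface epithelium too, by log2 ratios of 4.11 and 5.75, and Lgr5 stood there at 54.4 CPM at E14.5, close to its level in supporting cells.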

How the data were processed

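The labels describe 4 libraries of XX gonads made with the 10x Genomics 3′ kit, version 2. Cell Ranger 2.2.0 and the mm10 build are named in the submitters' processing notes, without their settings, and the normalization tool is not given in the sources used here. The table deposited by the authors holds natural log values, ln(1 + x), where x is a gene's UMIs scaled so that a cell sums to 10000. This was read from the values: after the log was undone, each of the 69792436 entries above 0 (100%) was a whole number of times the lowest one in its cell (relative tolerance 1e-06). UMIs were therefore recovered in all 19387 cells, where the plan had assumed counts. The libraries held 80377418, 78223391, 69458291 and 72506090 UMIs in stage order.

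Cells over 20% mitochondrial UMIs or under 200 genes were left out (3, 1, 1 and 0 cells). No doublet caller was run, and cells that met 2 or more class rules were left out of each class. UMIs summed per class and library gave CPM with Poisson intervals, log2 ratios have exact binomial intervals, and shares of cells Clopper-Pearson ones. A count of 0 was replaced by 3 UMIs over the group for a bound. Profiles were compared by Pearson correlation of log2(CPM + 5). The size rule was tested on simulated data. Thinning used seed 1, and the tools were Python 3.11.15, NumPy 2.4.6, SciPy 1.17.1 and Matplotlib 3.10.9. The named genes were all 10 members, the listed relatives and markers past the rule or nearest to a member, and the 3 nearest genes of each member. The members, the lists, the relatives and the rules were chosen with earlier results of these data known.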

Additional observations from a re-analysis of the deposited data

Results flagged for a closer look

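Mia was the only one of the 10 genes whose stage ratio lay on one side of 0 in supporting cells and on the other in germ cells. From E12.5 to E13.5 its log2 ratio was 1.30 (0.93 to 1.69) in supporting cells and -0.99 in germ cells, and from E11.5 to E14.5 it was 4.43 (3.88 to 5.03) and -2.0 (-2.68 to -1.31). The difference between the classes was not tested, since each stage has 1 library. In germ cells Mia rested on 34, 57, 30 and 43 UMIs in stage order.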

How the results depend on the processing

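No paired analysis was possible because each stage has 1 library. With 1 library per stage none could be left out either. Over 12 alternatives the log2 ratio of E14.5 over E11.5 in supporting cells was above 0 for each of the 10 genes, lowest for Cryab (3.05 to 4.66), and the count past the rule of size ran from 6, with all cells outside the germ rule, to 10. The count in the surface epithelium was 3 in place of 5 with supporting cells defined by 2 of the 5 rule genes. The count higher in supporting cells than in surface epithelium at E14.5 was 3 in place of 5 when cells of 2 rules were counted in each class, and 3 at a ratio of 4. The share of E14.5 supporting cells with a UMI of any of the 10 genes was 66.8%, and it became 83.5% at 4000 UMIs per cell, 96.6% without thinning and 70.5% with 4 of the 5 rule genes. The cause of these moves was not tested, apart from the depth left by thinning.

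Over the same alternatives the E14.5 ratio of supporting cells over surface epithelium ran from -0.80 to 1.35 for Svs5 (above 0 in 1 of 10), from -0.31 to 0.92 for Mia (7 of 10) and from -0.11 to 0.42 for Adamts19 (9 of 10). Ly6d, Pld5, Serpina3a, Sorbs2, Gatm and Mt3 were above 0 in all 10 and Cryab in none. Over all genes, the counts higher and lower at E14.5 in supporting cells (93 and 68 of 6064) became 774 and 256 of 17768 with no minimum, 353 and 204 at a ratio of 2, 60 and 47 over all cells outside the germ rule, and 269 and 521 of 2791 with the germ cell level subtracted, which was 278 and 438 of 2545 in the surface epithelium (75 and 19 of 5859). Between the classes at E14.5 the counts (405 and 384) became 125 and 87 with cells of 2 rules in each class, 109 and 92 at a ratio of 4 and 1091 and 811 with no minimum. Leaving out cells over 1% erythroid UMIs was chosen after the data had been seen. At E11.5 the surface epithelium held 2, 2 and 0 UMIs of Ly6d, Svs5 and Serpina3a, which limits their ratios there.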

Other observations

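The genes whose profile was most like that of each of the 10 were taken from 8156 genes with at least 20 CPM in 1 of 16 profiles (4 classes at 4 stages). Profiles of a stage share a library, and the values are a description. Ly6d and Serpina3a were nearest to the same genes, U90926 (r = 0.97 and 0.98) and Hsd3b1 (0.97 and 0.94), a steroidogenic enzyme gene, and Serpina3a was nearest of all to Ly6d (0.99). Svs5 and Mia were near each other (0.92), and both were near Crygb, a lens crystallin gene (0.94 and 0.89), and Nrap (0.91 and 0.85). Pld5, Sorbs2 and Adamts19 formed another such group: Pld5 and Sorbs2 had r = 0.97, both were near Cd44, the hyaluronan receptor gene (0.95 and 0.98), and Adamts19 and Sorbs2 were near Npas3, a transcription factor gene (0.95 and 0.98). Hs3st1 (0.95) was also near Pld5, and Sbspon (0.94) near Adamts19.

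Gatm stood apart, with Hspb6 (0.96), Cacnb2 (0.93) and Cmbl (0.93) nearest to it. Cryab was nearest to Nexn, an actin-binding protein gene (0.97), Ccdc106 (0.93) and Ano1 (0.92). Mt3 was nearest to the mitochondrial gene mt-Co1 (0.96), then Pla2g1b (0.95), which was also near Ly6d (0.94), and Khdrbs3 (0.95). Among the 10 genes the lowest likeness was that of Mt3 and Cryab (0.17).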
